A study of Drosophila melanogaster with 4 samples.

Results

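Part of the pericentric heterochromatin of chromosome 3 is listed in FlyBase release 5 as 2 scaffolds apart from the arm sequences 3L and 3R. They are 3LHet on the left side and 3RHet on the right side. All enriched regions of Su(var)3-7 whose sequence name is 3LHet or 3RHet in the list that combines the replicates were taken, without use of any score or length. There were 408 of them among 9474 enriched regions (4.31%), 294 on 3LHet and 114 on 3RHet, on sequence that makes up 3.63% of the listed genome without Uextra. They held 6.26% of the covered length of that list. The same 2 scaffolds held 237 of 6780 regions in ChIP replicate 1 (185 on 3LHet and 52 on 3RHet) and 265 of 6658 in ChIP replicate 2 (192 and 73).

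The data are chromatin immunoprecipitation followed by sequencing (ChIP-seq) with the antibody Q3448 against Su(var)3-7, on head nuclei of mixed adult flies of the wild-type Drosophila melanogaster strain Oregon-R-modENCODE. The groups are 2 ChIP libraries and 2 input libraries of sonicated chromatin. All were made from heads that had been sieved from flies of population cages and fixed with formaldehyde, and the regions of a ChIP library were called against the input with the same number. Heads of many flies were pooled. Whether separate cages or collections gave the replicates is not stated in the labels, so the spread between them may be technical. The files hold regions with a start, an end and a score, and no reads, so library depth is unknown and the head origin could not be checked against marker genes.

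Su(var)3-7 is a zinc-finger protein that binds HP1, the protein that reads methylated histone tails in heterochromatin, and its dose modifies how strongly genes placed next to heterochromatin are silenced. Pericentric heterochromatin surrounds the centromere and is rich in transposons and satellite repeats, with few genes in between. Much of it cannot be assembled, and its repeats make reads hard to place, so a base outside a region is either not enriched or was not callable. The treatment of reads with several matches and the share of assembly gaps in each scaffold are not known from the labels or headers. No release 5 genome was used here, and regions are therefore given by coordinates without their sequence.

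The first comparison set the left side against the right side. The scaffolds are of nearly equal length, 2555491 bp for 3LHet and 2517507 bp for 3RHet. On 3LHet, enriched regions covered 29.6% of the bases in replicate 1 and 40.7% in replicate 2. On 3RHet they covered 10.7% and 15.9%. The highest value of 3RHet was thus below the lowest value of 3LHet. The ratio of the left to the right side was 2.77 in replicate 1 and 2.56 in replicate 2, a mean of 2.67 ± 0.151 (SD, n = 2). In the combined list the shares were 52.2% and 19.3%, a ratio of 2.70. The smallest p that an exact permutation test by sign flips (two-sided) allows with 2 replicates is 0.5, so no test was run here or in any comparison below, and differences are set against the spread between the replicates only.

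Over whole scaffolds, the difference in covered share went with the number of regions and not with their mean length in both replicates. Covered share is the product of regions per Mb and mean region length, so its ratio splits into a number part and a length part. Replicate 1 held 72.4 regions per Mb on 3LHet and 20.7 on 3RHet, and replicate 2 held 75.1 and 29.0. The number ratio was 3.50 and 2.59, a mean of 3.05 ± 0.646 (SD, n = 2). The mean region length was 4091 bp on 3LHet and 5167 bp on 3RHet in replicate 1, and 5419 and 5481 bp in replicate 2. The length ratio was 0.792 and 0.989, a mean of 0.890 ± 0.139 (SD, n = 2), so regions of the right side were on average as long as those of the left side or longer in both replicates. On the log2 scale the covered share ratio of 1.47 in replicate 1 was the sum of 1.81 for number and -0.34 for length. In replicate 2, 1.36 was the sum of 1.37 and -0.02.

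The combined list gave nearly the same split, with 115.05 regions per Mb on 3LHet and 45.3 on 3RHet, a number ratio of 2.54. Its mean lengths were 4541 and 4268 bp, a length ratio of 1.06. That slight excess of length on the left turned to 0.910 when regions shorter than the shortest replicate region, 1301 bp, were left out. With neighbours under 1 kb apart merged, the number ratio of the combined list was 1.96 and its length ratio 1.40. Length then carried a part of the difference in that list. In the replicates the same merging gave mean ratios of 3.67 for number and 0.767 for length. The median region was of about the same length on both scaffolds in replicate 1, at 2225 bp on 3LHet and 2285 bp on 3RHet. In replicate 2 it was longer on the left, at 3230 and 2264 bp, and likewise in the combined list, at 2220.5 and 1596 bp.

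**Figure D1:**
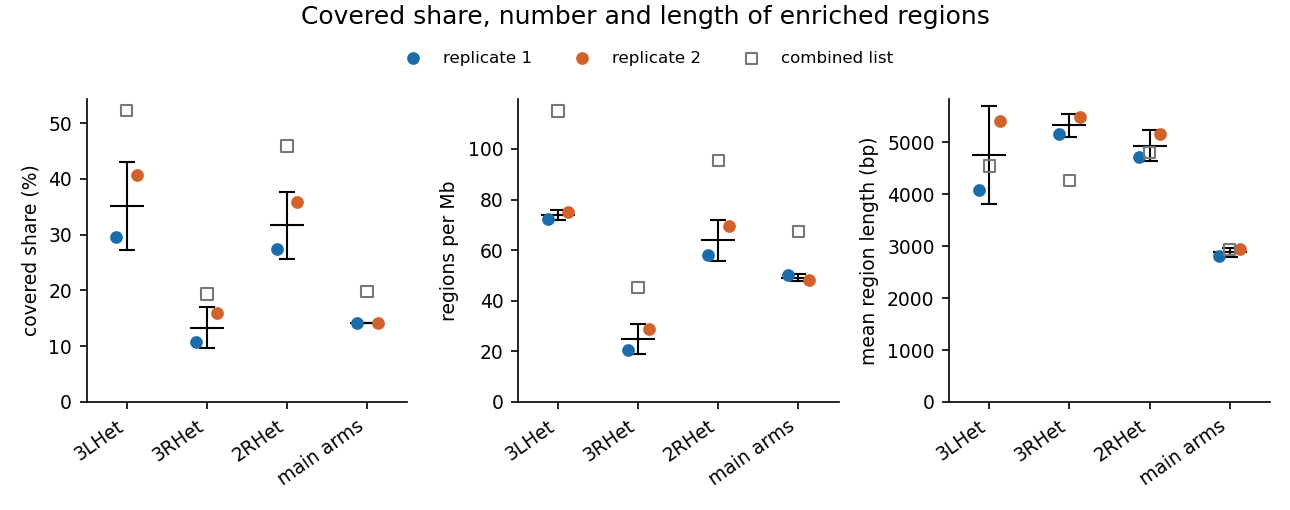
Covered share (% of bases), regions per Mb and mean region length (bp) on 3LHet, 3RHet, 2RHet and the main arms together. Filled points are the replicates, black marks their mean with SD (n = 2) and open squares the combined list; 3RHet is lowest in regions per Mb, while its mean region length is 5167 and 5481 bp in the replicates, against 2817 and 2943 bp on the main arms.

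Fewer regions were found on the right side in every length class, in all 3 lists. Regions under 2 kb were 3.94 times as dense on 3LHet as on 3RHet in replicate 1 and 1.58 times in replicate 2. Regions of 2 to 5 kb were 4.23 and 4.25 times as dense on the left, and regions of 5 to 10 kb 2.36 and 3.66 times. Regions of at least 10 kb differed by 2.25 and 2.18 times.

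Long regions made up much of the covered length on both scaffolds. In replicate 1, 16 regions of at least 10 kb held 33.9% of the covered length of 3LHet, and 7 held 43.9% of that of 3RHet. In replicate 2, 31 held 49.0% on 3LHet and 14 held 60.9% on 3RHet. In all, 23 of 237 regions (9.70%) in replicate 1, 45 of 265 (17.0%) in replicate 2 and 45 of 408 (11.0%) in the combined list reached 10 kb. Over all sequences the shares were 2.01%, 3.14% and 2.82%. On 2LHet, 2RHet and XHet together they were 9.01%, 9.89% and 9.12%, so many long regions were not particular to these 2 scaffolds. The longest regions were 29102 and 27592 bp on 3LHet and 23917 and 25931 bp on 3RHet, in replicates 1 and 2.

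The second comparison was of position along the scaffolds. In windows of 100 kb, every one of the 26 windows of 3LHet held covered bases in both replicates. The windows ranged from 2.88 to 69.3% with a median of 23.0% in replicate 1, and from 9.38 to 77.9% with a median of 36.3% in replicate 2. On 3RHet, 13 of 26 windows in replicate 1 and 7 in replicate 2 held no covered base, and the medians were 0.653% and 3.26%. The highest windows of 3RHet nevertheless reached 80.4% and 86.5%, above every window of 3LHet. The last window is shorter on both scaffolds, 55.5 kb on 3LHet and 17.5 kb on 3RHet.

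**Figure D2:**
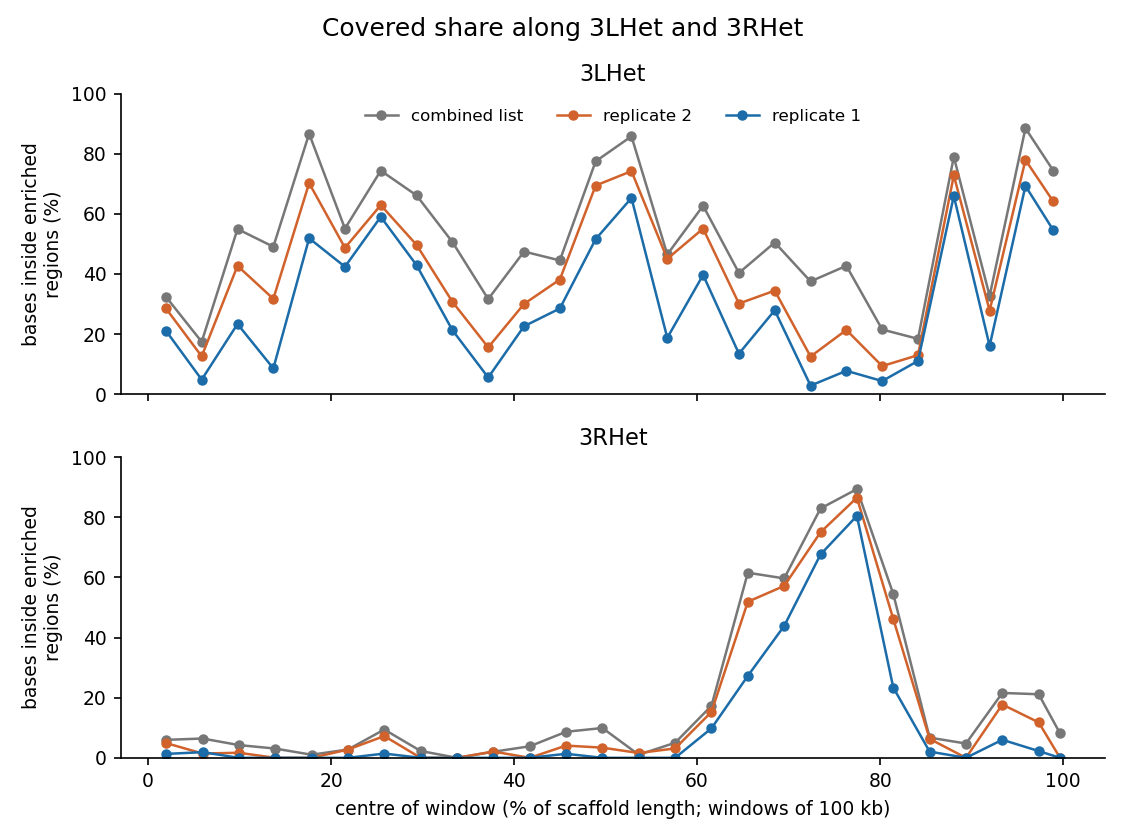
Percentage of bases inside enriched regions in windows of 100 kb along 3LHet (top) and 3RHet (bottom), against the window centre as a percentage of scaffold length. Blue and orange lines are replicates 1 and 2 and the grey line is the combined list; 3LHet has covered bases in every window, whereas 3RHet has 1 block that peaks at 80.4 and 86.5% and a long stretch near 0.

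On 3RHet the covered length gathered in 1 stretch. The most covered 500 kb, searched in steps of 100 kb, ran from 1600001 to 2100000 in each replicate separately. Since both replicates chose this stretch on their own values, measuring it in the other replicate does not correct for the choice. The stretch is 19.9% of the scaffold, and it held 90.3% of the covered length of replicate 1 and 79.2% of that of replicate 2. Inside it 48.5% and 63.3% of the bases were covered, in replicates 1 and 2. Outside it the covered shares were 1.29% and 4.13%. Window by window, the share in replicate 1 was 27.3, 43.9, 67.6, 80.4 and 23.4% from the start of the stretch to its end, and in replicate 2 it was 51.9, 57.2, 75.0, 86.5 and 46.2%. Both replicates were highest from 1900001 to 2000000, and the next window before the stretch held 9.82 and 15.3%.

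No such single stretch was seen on 3LHet. The most covered 500 kb ran from 400001 to 900000 in replicate 1 and from 1100001 to 1600000 in replicate 2. Each was measured in the other replicate. The former held 25.2% of the covered length of replicate 2 and the latter 26.9% of that of replicate 1, on 19.6% of the scaffold. On 2RHet, the only other heterochromatic arm sequence of more than 1 Mb, the most covered 500 kb was the same in both replicates. It held 30.0 and 27.4% of the covered length on 15.2% of the scaffold.

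Inside its most covered 500 kb the right side had the higher covered share, from fewer but longer regions. With each stretch chosen in one replicate and measured in the other, the ratio of 3LHet to 3RHet was 0.840 in replicate 1 and 0.828 in replicate 2. The number ratio inside was 1.14 and 1.17, and the length ratio 0.738 and 0.712. In replicate 2 the mean region length was 6265 bp inside the 3LHet stretch and 8796 bp inside the 3RHet stretch. In replicate 1 it was 4261 and 5775 bp. Outside the stretches the ratio of covered share was 20.8 in replicate 1 and 9.16 in replicate 2. There the number ratio was 13.4 and 3.98, and the length ratio 1.54 and 2.30. The mean length over the whole of 3RHet thus pooled long regions inside the stretch with regions outside it that averaged 2611 bp in replicate 1 and 2255 bp in replicate 2. The outside ratios depend on the choice, since each stretch was picked as the most covered. In replicates 1 and 2, the part left out held 90.3 and 79.2% of the covered length of 3RHet. On 3LHet it held 26.9 and 25.2%. Both replicates chose the same stretch on 3RHet, so measuring in the other replicate could lower the inside share on 3LHet only. Measured where chosen, that share was 43.5% on 3LHet and 48.5% on 3RHet in replicate 1, and 56.4% and 63.3% in replicate 2. In the combined list it was 66.6% and 69.6%. The right side was then higher by less.

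The sparse part of 3RHet held few regions, and those of replicate 2 were mostly its own. Replicate 1 placed 42 regions inside the stretch and 10 outside it, and replicate 2 placed 36 and 37. All 42 inside regions of replicate 1 and 8 of its 10 outside regions overlapped a region of replicate 2. In the other direction, 28 of 36 inside regions of replicate 2 overlapped replicate 1, against 8 of 37 outside. Over all sequences 83.3% of replicate 1 regions and 81.2% of replicate 2 regions had a partner. The inside share of replicate 2 (77.8%) was near the latter, and the outside share of replicate 1 (80%) near the former. The outside share of replicate 2 (21.6%) was lower. It could hardly reach 81.2%, since replicate 1 had only 10 regions there, which covered 1.29% of the bases. It therefore does not measure how well the replicates agree. Of the combined list, 39 regions lay inside and 75 outside. Of the 39, 19 were found in both replicates and 14 in neither, and of the 75, 8 were found in both and 39 in neither, against 53.2% and 24.4% of the whole combined list.

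Windows that were at least 50% covered in both replicates numbered 7 of 26 on 3LHet and 2 of 26 on 3RHet, against 3.27% of the 1405 windows of all sequences without Uextra. The 7 on 3LHet lay in 5 places along the scaffold: from 400001 to 500000, from 600001 to 700000, from 1200001 to 1400000, from 2200001 to 2300000, and from 2400001 to the end. They were parted by windows as low as 2.88% in replicate 1 and 9.38% in replicate 2. Windows without a covered base in either replicate numbered 0 on 3LHet and 7 on 3RHet, against 6.69% of all windows. Replicate order of the windows was much alike, with a Spearman's rho between the replicates of 0.95 over the 26 windows of 3LHet and 0.89 over those of 3RHet. This is a description only, since both replicates share the same assembly and the same repeats.

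Gaps between neighbouring regions showed the same contrast. The median gap was 3246.5 bp on 3LHet and 2366 bp on 3RHet in replicate 1, and 3834 and 5320 bp in replicate 2, so a typical gap did not set the sides apart in the same direction. The long gaps did. On 3LHet, replicate 1 had 2 gaps of at least 100 kb and replicate 2 had 1, and these took up 10.6% and 4.04% of the scaffold. On 3RHet there were 6 in each replicate, and they took up 74.2% and 45.9%. The mean gap was 9753 and 7925 bp on 3LHet, and 43090.5 and 28842 bp on 3RHet.

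The longest gaps of replicate 1 on 3RHet followed each other along the left part of the scaffold. They ran from 129533 to 630494 (500.96 kb), from 631915 to 1105106 (473.2 kb) and from 1106453 to 1518591 (412.1 kb). Only 1 region of replicate 1 lay between the first and the second, and 1 between the second and the third. Replicate 2 had 7, 3 and 7 regions in these gaps, which covered 2.03%, 1.07% and 2.73% of them. The longest gaps of the combined list on 3RHet ran from 791508 to 983814 (192.3 kb), from 634924 to 751090 (116.2 kb) and from 428619 to 534783 (106.2 kb). The first of these met the edge of 1 region of replicate 2, and the others held no region of either replicate. On 3LHet they ran from 85182 to 152372 (67.2 kb), from 2327209 to 2375326 (48.1 kb) and from 1665115 to 1711832 (46.7 kb). The last of these held bases of 1 region of replicate 1 (3.04% of the gap).

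**Figure D3:**
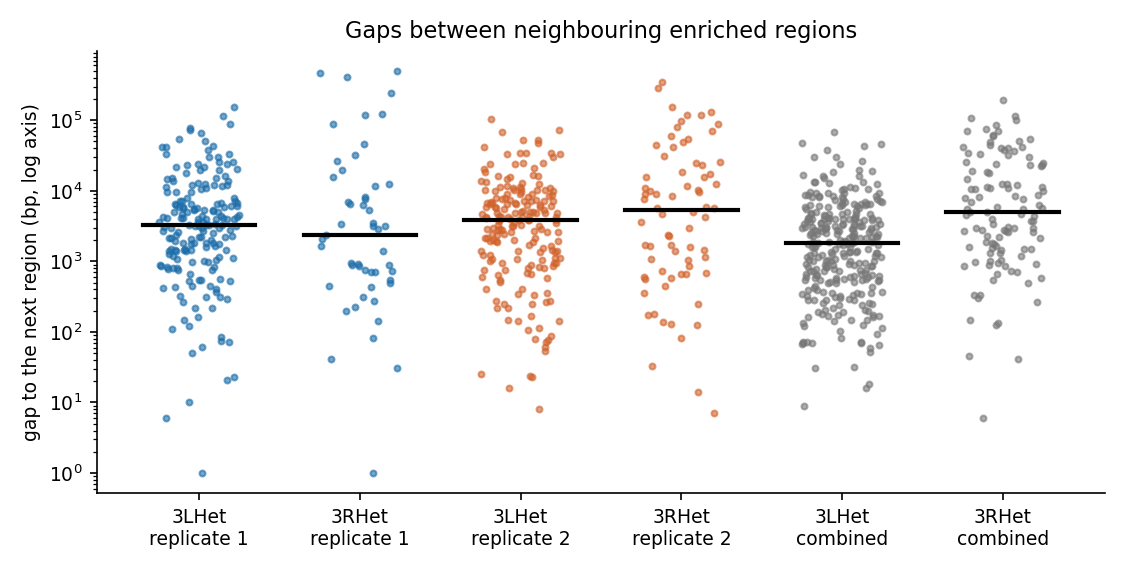
Gap in bp (log axis) between each enriched region and the next, by scaffold and list. Each point is a gap and the black line is the median; the upper end reaches 500.96 kb on 3RHet and 155.2 kb on 3LHet in replicate 1, while the medians lie between 1793 and 5320 bp.

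The third comparison set the replicates against each other. Replicate 2 covered 1.37 times the length of replicate 1 on 3LHet (1040.4 against 756.8 kb) and 1.49 times on 3RHet (400.1 against 268.7 kb). On the main arms as a whole the replicates covered the same share, 14.2% each. The other heterochromatic arm sequences had a like excess in replicate 2, of 1.48 times on 2LHet, 1.31 times on 2RHet and 1.32 times on XHet. On 3LHet the number of regions was 1.04 times and the mean length 1.32 times that of replicate 1. On 3RHet the number was 1.40 times and the mean length 1.06 times, but this joins unlike parts. Inside its most covered 500 kb, replicate 2 had 0.857 times the number and 1.52 times the mean length, and outside it 3.70 times the number and 0.864 times the mean length. The covered share was higher in replicate 2 in 26 of 26 windows of 3LHet. On 3RHet it was higher in 18 windows, lower in 1, and 0 in both replicates in 7.

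Nearly all bases of replicate 1 lay inside replicate 2. The reverse share had to be lower, since replicate 1 covered less, with 756.8 against 1040.4 kb on 3LHet and 268.7 against 400.1 kb on 3RHet. The replicates shared 702.6 kb on 3LHet, which was 92.8% of replicate 1 and 67.5% of replicate 2. On 3RHet they shared 259.7 kb, which was 96.6% of replicate 1 and 64.9% of replicate 2. Of the 337.8 kb found in replicate 2 alone on 3LHet, 188.4 kb (55.8%) extended regions that also met replicate 1 and 149.4 kb lay in regions of their own. Of the 140.5 kb on 3RHet, 70.1 kb (49.9%) extended shared regions and 70.3 kb lay apart. Regions of replicate 2 also joined pieces of replicate 1: 33 of the 192 on 3LHet and 8 of the 73 on 3RHet took in at least 2 regions of replicate 1.

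By number, 165 of 185 regions of replicate 1 on 3LHet (89.2%, exact Clopper-Pearson 95% interval 83.8 to 93.3%) and 50 of 52 on 3RHet (96.2%, 86.8 to 99.5%) overlapped replicate 2 by at least 1 bp, against 83.3% of all regions of that list. In replicate 2 it was 123 of 192 on 3LHet (64.1%, 56.8 to 70.8%) and 36 of 73 on 3RHet (49.3%, 37.4 to 61.3%), against 81.2% of all its regions. These intervals cover counting error only. More overlap arises by chance where the other list covers more, and no chance level was computed for these scaffolds. Regions of replicate 2 without a partner were short, with a median of 1872 bp on 3LHet and 1703 bp on 3RHet, against 4709 and 6015 bp for those with one. Their median scores were 0.677 and 0.688, against 0.942 and 1.13.

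Of the 408 regions of the combined list, 135 (33.1%, exact 95% interval 28.5 to 37.9%) overlapped both replicates, against 53.2% of the whole list. On 3LHet it was 108 of 294 and on 3RHet 27 of 114. The replicates went into the combined list, so this overlap is not independent. A further 161 regions (39.5%) met neither replicate, against 24.4% of the whole list. There were 108 of these on 3LHet and 53 on 3RHet. Another 92 met replicate 2 alone and 20 replicate 1 alone.

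The regions found in both replicates held most of the covered length, with 987.4 kb (74.0%) on 3LHet and 347.8 kb (71.5%) on 3RHet, near the 74.3% of all sequences. Their median length was 5976 bp on 3LHet and 7540 bp on 3RHet. All 45 combined regions of at least 10 kb were among them, as were all 267 over all sequences. Of the 45, 32 lay on 3LHet and 13 on 3RHet, and 12 of the 13 had their middle inside the most covered 500 kb of 3RHet. The regions found in neither had medians of 1288 and 1179 bp, and 90 of the 161 (55.9%) were shorter than 1301 bp, against 54.9% of such regions over all sequences. They held 156.8 kb (11.7%) on 3LHet and 67.9 kb (14.0%) on 3RHet. A long region meets both replicates more readily than a short one for its length alone, and this was not corrected for.

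**Figure D4:**
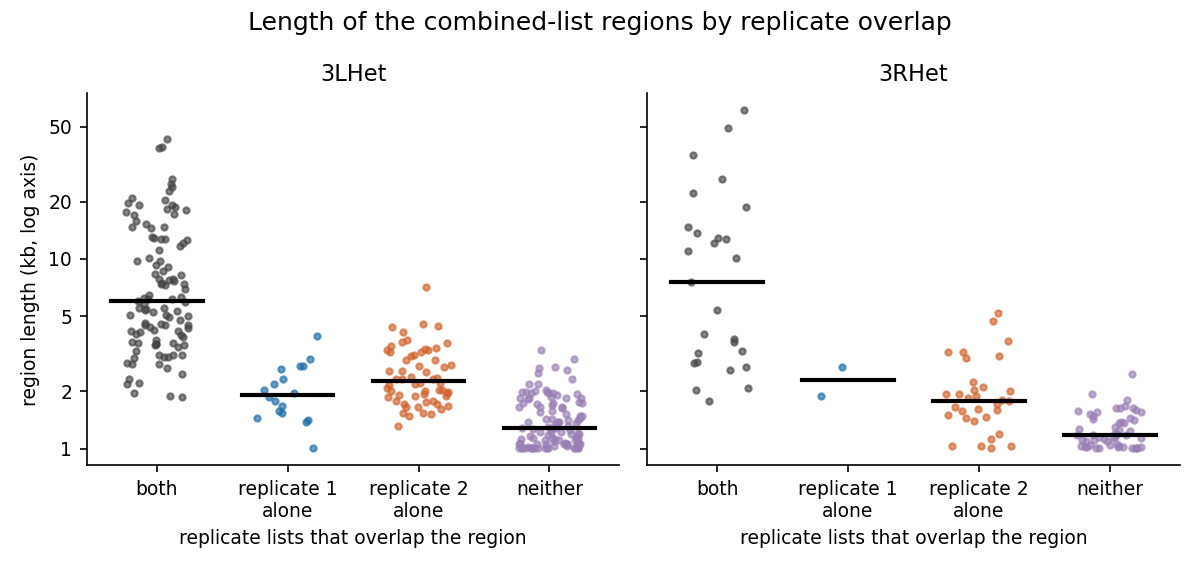
Length in kb (log axis) of each combined-list region on 3LHet (left) and 3RHet (right), by the replicate lists that overlap it. Points are regions and black lines medians; the regions found in both replicates have medians of 5976 and 7540 bp, and those found in neither 1288 and 1179 bp.

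The 5 longest regions found in both replicates were spread along 3LHet and lay close together on 3RHet. On 3LHet the longest ran from 1376785 to 1419766 (42982 bp, score 1.29), followed by those from 577301 to 616283 (38983 bp, score 1.88) and from 2381179 to 2419788 (38610 bp, score 1.66). The other two were 26574 bp from 2479893 and 24986 bp from 1557512. They held 12.9% of the combined covered length of 3LHet. On 3RHet the longest ran from 1756948 to 1817757 (60810 bp, score 1.58), followed by those from 1663136 to 1712137 (49002 bp, score 1.12) and from 1942794 to 1978004 (35211 bp, score 1.25). The other two were 26482 bp from 1886191 and 22315 bp from 1819070. All 5 lay inside the most covered 500 kb, and they held 39.8% of the combined covered length of 3RHet. The longest region of 3RHet corresponded to 6 regions of replicate 1 and 3 of replicate 2, which covered 81.4% and 97.7% of it. The longest of 3LHet corresponded to 5 and 3 regions, which covered 75.4% and 95.8%.

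The highest scores among regions found in both replicates, on the authors' scale, were close on the 2 sides. The top region of 3LHet was the one from 577301 to 616283, with 1.88. It was followed by the regions from 2229775 to 2245730 with 1.74, from 2381179 to 2419788 with 1.66, from 2 to 16986 with 1.63 and from 694096 to 712238 with 1.59. The top region of 3RHet ran from 1845343 to 1848980 (3638 bp) with 1.75. It was followed by the regions from 1819070 to 1841384 with 1.74, from 1756948 to 1817757 with 1.58, from 2348333 to 2352350 with 1.50 and from 1517257 to 1530892 with 1.46. The regions from 2348333 and from 1517257 lay outside the most covered 500 kb of 3RHet. Combined regions that met neither replicate did not reach the length of any of these. The longest on 3LHet ran from 375622 to 378945 (3324 bp), from 1040525 to 1043490 (2966 bp) and from 867278 to 869953 (2676 bp). On 3RHet they ran from 2453662 to 2456146 (2485 bp), from 2044758 to 2046694 (1937 bp) and from 1615018 to 1616826 (1809 bp).

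Median scores did not order the sides the same way in each list. In replicate 1 the median score was 0.726 on 3LHet and 0.857 on 3RHet, and the main arms had 0.657. In replicate 2 the medians were 0.823, 0.841 and 0.626. In the combined list they were 0.608, 0.596 and 0.457. The order of the sides thus turned between the lists, while both scaffolds stood above the main arms in each.

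The fourth comparison placed the scaffolds among other sequence. Against the main arms (X and both arms of chromosomes 2 and 3), 3LHet differed in number and in mean length alike. Its covered share was 2.09 and 2.88 times theirs in replicates 1 and 2. It had 1.44 and 1.56 times as many regions per Mb and 1.45 and 1.84 times the mean length. On 3RHet the parts ran against each other. Its number of regions per Mb was 0.411 and 0.603 times that of the main arms, and its mean length 1.83 and 1.86 times, which left a covered share of 0.754 and 1.12 times theirs. The covered share of 3RHet was thus below the main arms in replicate 1 and above them in replicate 2. Median lengths did not follow the means. On the main arms they were 2201 and 2177 bp in replicates 1 and 2, and 2167 bp in the combined list. In the same order they were 2225, 3230 and 2220.5 bp on 3LHet and 2285, 2264 and 1596 bp on 3RHet. A median well above the main arms was seen only on 3LHet in replicate 2.

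Against the other heterochromatic arm sequences as a group (2LHet, 2RHet and XHet), 3LHet had 1.13 ± 0.0306 times their covered share (SD, n = 2). 3RHet had 0.426 ± 0.0356 times their covered share, with 0.385 ± 0.0360 times their regions per Mb and 1.11 ± 0.0111 times their mean length. In the combined list the length ratio went the other way, at 0.913, with 0.469 times their regions per Mb. Most of this group is 2RHet, with 3288761 of its 3861745 bp. The 5 heterochromatic arm sequences compared here were 2LHet, 2RHet, XHet, 3LHet and 3RHet, and other heterochromatic sequence was not ranked. Of these 5, 3RHet had the fewest regions per Mb and 3LHet the highest covered share in each of the 3 lists. The covered share next to that of 3LHet was on 2RHet, with 27.4 and 35.9% in replicates 1 and 2 and 45.9% in the combined list. Chromosome 4, which is not in this set, was above 3LHet in covered share and in regions per Mb in each list. It was covered at 43.3 and 45.8% in replicates 1 and 2 and at 61.2% in the combined list. In the arm sequence itself, the 1 Mb of 3L at the centromere end was covered at 34.0 and 47.4% by 76 and 97 regions. The 1 Mb of 3R at its centromere end was covered at 21.0 and 27.1% by 60 and 70 regions. The left side was thus higher there too, with mean lengths of 4479 and 4891 bp on 3L against 3496 and 3865 bp on 3R.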

How the data were processed

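Per the submitters' processing notes, reads were mapped with Bowtie 0.12.7, a short-read aligner. Per the file headers, coordinates are of FlyBase release 5. Regions were deposited as significantly enriched, for each ChIP replicate against its own input and for the set of replicates. The score of each region is the authors' own, deposited without a stated scale, so it was used only within a list. Nothing in the labels or headers gives the caller, its threshold or how replicates were joined. No file gives values for the input libraries alone.

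Enriched regions on 3LHet and 3RHet were taken from each list. The 3 depleted regions of the combined list, and the regions that ran past their sequence, lay elsewhere. Covered shares use sequence lengths from the headers. A region lies inside a 500 kb stretch where its middle does. Overlap means at least 1 bp. Functions for overlap, merging and covered length were tested on simulated scaffolds. Python 3.11.15, numpy 2.4.6, pandas 2.3.3 and scipy 1.17.1 were used. Alternatives changed the regions kept, merging, the overlap, scaffold length and the replicates used. Named regions are the 5 longest and 5 highest-scoring combined regions of each scaffold found in both replicates, the 3 longest gaps and the 3 longest regions found in neither. Members, lists and tests were chosen with earlier results of these data known, and the 500 kb stretches after seeing the windows. The gene table at hand is of another release, so gene annotations were not used.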

Additional observations from a re-analysis of the deposited data

How the results depend on the processing

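No paired analysis was possible because no file gives values for the inputs alone. Of 47 alternative values that kept both replicates, 35 kept their direction and stayed within a limit: the spread between replicates for ratios of the sides (also for the combined list), the exact 95% interval for shares, and 1.1 times for the ratio of the replicates. Of the 35, 3 could not move, since no replicate region is shorter than 1301 bp. Leaving out a replicate gave ratios of 3LHet to 3RHet of 2.56 to 2.77 for covered share, 2.59 to 3.50 for regions per Mb and 0.792 to 0.989 for mean length, which cannot pass the limit by construction. With the most covered 500 kb of each scaffold left out, chosen after seeing the data, the ratios were 15.0 for covered share (7.10 in the combined list), 8.71 for regions per Mb (3.09 in the combined list) and 1.92 for mean length (2.29 in the combined list), where the length ratio turned its direction in the replicates. In the combined list, the covered share ratio was 2.99 without the longest region of each scaffold. Its length ratio of 1.06 was 1.40 with neighbours under 1 kb apart merged, and turned to 0.910 with regions of at least 1301 bp. The share of combined regions found in both replicates, 33.1%, was 24.5% when each replicate had to cover 50% of the region, and 43.4% over regions of at least 1301 bp. The share of replicate 2 regions found in replicate 1, 60.0%, was 50.2% when 50% had to be covered. With only the upper 50% by score, the ratio of replicate 2 to replicate 1 on 3LHet went from 1.37 to 1.52. Causes of these moves were not tested. Depth is unknown, so missing enrichment and missing callability look the same.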

Other observations

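In the combined list the 2 highest scores on each of 3LHet and 3RHet belonged to short regions that neither replicate list holds; these were chosen after the values were seen. The top of 3RHet, from 1660462 to 1662092 (1631 bp), had a score of 3.13. On 3LHet the regions from 1301181 to 1302181 and from 1542453 to 1543453, and on 3RHet the one from 1987086 to 1988086, were each 1001 bp long with the same score of 2.89. Regions of exactly 1001 bp, the shortest length, made up 13 of 408 on the scaffolds (3.19%) and 67 of 8023 on the main arms (0.835%), with median scores of 1.65 and 0.446. All 13 met neither replicate, as did 99 of the 107 such regions over all sequences. In the replicate lists score and length went together across regions (Spearman's rho of 0.58 and 0.63 on 3LHet and 0.63 and 0.57 on 3RHet). In the combined list the values were 0.19 and 0.08, against 0.52 over all sequences. Regions share a library and a caller, so these correlations are descriptions only.

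A few regions nearly touched their neighbours. On 3LHet, 10 of 184 gaps in replicate 1 and 11 of 191 in replicate 2 were under 100 bp (5.43 and 5.76%), and on 3RHet 4 of 51 and 4 of 72 were. On the main arms the shares were 2.12 and 2.10%. In the combined list they were 5.80% on 3LHet, 2.65% on 3RHet and 3.44% on the main arms. The shortest gap was 1 bp on both scaffolds in replicate 1. Gaps under 1 kb were 23.9 and 24.1% of the gaps on 3LHet in replicates 1 and 2, and 43.1 and 27.8% on 3RHet. On the main arms they were 14.1 and 15.5%. In the combined list the shares were 37.9% on 3LHet, 19.5% on 3RHet and 22.2% on the main arms. The side with the larger share of such short gaps thus turned between the replicates and the combined list. Numbers of regions, unlike covered shares, depend on such breaks.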
